A study of Mus musculus with 38 samples.

Results

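The genes *Gng4*, *Dlk1*, *St8sia6*, *Elapor2*, *Lratd1*, *Cntn3*, *Lipk*, *Tacr3*, *Sptlc3* and *Slc26a9* were followed across 38 mouse thyroids. They are 10 of the 19938 genes that a single-gene probe set named on the array. They were chosen by their own readout, since they stand near the top of the genes that were higher in *BRAF*(+) than in *BRAF*(-) non-malignant thyroids and none has a settled role in the thyroid. Each gene had 1 probe set, taken by its symbol. The mice were of the FVB/N strain, and the transgenic ones carried the human *BRAF*V600E cDNA with an HA tag behind the bovine thyroglobulin promoter, which is active in thyroid follicular cells. A mouse was called *BRAF*(+) where the *BRAF*V600E RNA was found in the gland. Of the *BRAF*(+) mice, 10 had a papillary thyroid carcinoma (PTC), 10 a borderline lesion (BL), 4 a benign hyperplastic lesion (BHL) and 5 an asymptomatic thyroid (AT). By the study's table they came from the transgenic lines tg2 and tg3, most from tg3, and those with BHL from tg3 only. The study found more BRAFV600E protein in tg2 than in tg3. Line was not a term in any fit here, so lesion groups and lines are partly mixed. The *BRAF*(-) mice were 4 with BHL and 5 with AT. The *BRAF*(-) mice were genotyped as non-transgenic, except 1 BHL mouse of line tg1 that carried the transgene without its RNA. Median ages of the groups lay between 10 and 11.5 months, the youngest mice were 4 months and the oldest 24 months old, and 29 mice were females and 9 were males. Each mouse is a separate animal and gave 1 array.

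BRAFV600E is a permanently active form of the kinase BRAF. It drives the MEK and ERK kinases without an upstream signal and is the most common driver of human PTC, in which thyroid-specific genes are often reduced. The genes described here come from unrelated families. *Gng4* encodes a gamma subunit of the heterotrimeric G proteins, which carry signals from 7-pass receptors, and *Tacr3* encodes one of these receptors, that of the peptide neurokinin B. *Dlk1* encodes a membrane protein with EGF-like repeats that is related to the Notch ligands and restrains adipocyte differentiation. It is an imprinted gene of the Dlk1-Dio3 locus. *Cntn3* encodes a contactin, an adhesion protein with immunoglobulin domains best known from neurons, and *Slc26a9* a chloride transporter of airway and stomach epithelium. Enzymes are encoded by *St8sia6*, a sialyltransferase that adds sialic acid to sialic acid on glycoproteins, by *Lipk*, a lipase of the acid lipase family expressed in differentiating epidermis, and by *Sptlc3*, a subunit of the serine palmitoyltransferase that starts sphingolipid synthesis. *Elapor2* encodes a membrane protein related to the autophagy regulator *Elapor1*, and *Lratd1* a protein with an LRAT domain.

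The 10 genes lie on 8 chromosomes and only *Dlk1* and *Lratd1*, on chromosome 12, and *St8sia6* and *Sptlc3*, on chromosome 2, share one. Stretches before annotated starts were available for 9 of them in RefSeq (GRCm38.p6). Because the genes moved together across mice, the 250 bases before each start were searched on both strands for TGANTCA (the AP-1 site), CCGGAAG (an ETS site), CTCAAG (a site of the thyroid factor NKX2-1) and TATAAA (the TATA box). The first 3 were found before the start of 0 of the 9 genes, while 6.75%, 6.91% and 13.3% of all 32851 such stretches hold them. TATAAA was found for 2 of the 9, *Tacr3* and *Slc26a9*, and in 12.4% of all stretches. Those of *Tacr3* and *Slc26a9* are shown for this motif, in capitals, and that of *Gng4* because it had the largest difference by *BRAF* status. The *Gng4* stretch is chr13:13783809-13784058, plus strand, the *Tacr3* stretch chr3:134828757-134829006, plus strand, and the *Slc26a9* stretch chr1:131743772-131744021, plus strand. In *Slc26a9* the capitals join a match on each strand, which begin 30 and 28 bases before the start, and in *Tacr3* the match begins 29 bases before it.
Gng4: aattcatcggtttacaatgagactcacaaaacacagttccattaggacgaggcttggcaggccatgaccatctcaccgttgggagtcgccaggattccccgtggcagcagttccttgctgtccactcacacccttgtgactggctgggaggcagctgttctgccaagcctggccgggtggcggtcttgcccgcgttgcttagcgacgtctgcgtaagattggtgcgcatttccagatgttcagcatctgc
Tacr3: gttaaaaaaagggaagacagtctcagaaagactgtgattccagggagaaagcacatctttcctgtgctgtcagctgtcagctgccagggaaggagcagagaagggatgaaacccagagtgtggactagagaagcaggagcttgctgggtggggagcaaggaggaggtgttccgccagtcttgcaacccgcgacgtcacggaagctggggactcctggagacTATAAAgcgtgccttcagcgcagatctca
Slc26a9: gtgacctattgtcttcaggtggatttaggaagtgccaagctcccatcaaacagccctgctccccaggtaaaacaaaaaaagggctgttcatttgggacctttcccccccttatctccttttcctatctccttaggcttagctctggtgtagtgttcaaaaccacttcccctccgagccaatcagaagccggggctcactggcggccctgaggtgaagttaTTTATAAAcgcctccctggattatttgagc
The GC content of the stretches ran from 26.4% before a *Cntn3* start to 70.8% before that of *St8sia6*, around the median of 52.4% over all promoters.

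Values are log2 signals after RMA, so that a difference of 1 is a 2-fold change, and a probe set's level cannot be set against that of another gene. Array medians lay between 6.00 and 6.15. In 8 of the 10 genes, all but *Gng4* and *Dlk1*, the *BRAF*(-) mean was below every array median, and without a detection call in the table whether such signals are above background is not known here, so that folds against them are folds of signal. Thyroid identity was present in all mice: *Tg*, the hormone precursor, lay at 13.30 to 13.74 and the lineage factor *Pax8* at 11.00 to 11.88. RNA came from whole tissue, in which fewer cells of a type and less RNA per cell cannot be told apart. Between *BRAF*(+) and *BRAF*(-) non-malignant thyroids, markers of other tissue moved too: 6 of the 8 adipocyte markers tested were lower in *BRAF*(+) thyroids, and the mean adipocyte signal ran from 8.70 to 9.62 in *BRAF*(-) mice and from 7.67 to 9.05 in *BRAF*(+) ones. Of 11 skeletal muscle markers tested 0 passed, although the mean muscle signal reached 9.50 in *BRAF*(-) AT and 9.36 in *BRAF*(-) BHL, against at most 5.66 in *BRAF*(+) non-malignant mice. Lower in *BRAF*(+) thyroids were also 2 of 5 brown adipocyte markers, 2 of 4 airway markers (*Scgb1a1* and *Scgb3a1*), 1 of 4 C cell and neuroendocrine markers and 1 of 2 neuron and glia markers tested, while 0 of 6 macrophage markers passed. Without the filter on variation that limits what was tested, *Scgb3a1* did not pass (limma adjusted p = 0.088). *Ager*, another gene of the airway list, then rose (0.63, limma adjusted p = 0.023). Of the follicular cell markers *Slc5a5*, the iodide transporter, and *Dio1*, a deiodinase, were lower and 0 of 4 tested were higher. With muscle and adipocyte signals as covariates, the differences of the 10 genes by *BRAF* status ran from 1.33 in *Slc26a9* to 4.12 in *Gng4*, and from 2.01 to 4.47 without these covariates. The part of the other tissues in the results was not tested.

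All 10 genes were near their lowest signals in *BRAF*(-) thyroids and were 4.15-fold to 21.3-fold higher in the *BRAF*(+) non-malignant ones. This contrast selected them, so it is described without a test. In the whole table it called 883 of 4388 probe sets, or 20.1%. Ranked by the size of the increase among named genes, *Gng4* was at place 5, *St8sia6* to *Cntn3* held places 7 to 11, *Lipk*, *Tacr3* and *Sptlc3* were at 13, 15 and 18, and *Slc26a9* was at 29. Genes between and above them included the surfactant genes *Sftpb*, *Sftpa1* and *Sftpd* and the secreted *Chil1* and *Lcn2*.

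**Figure D1:**
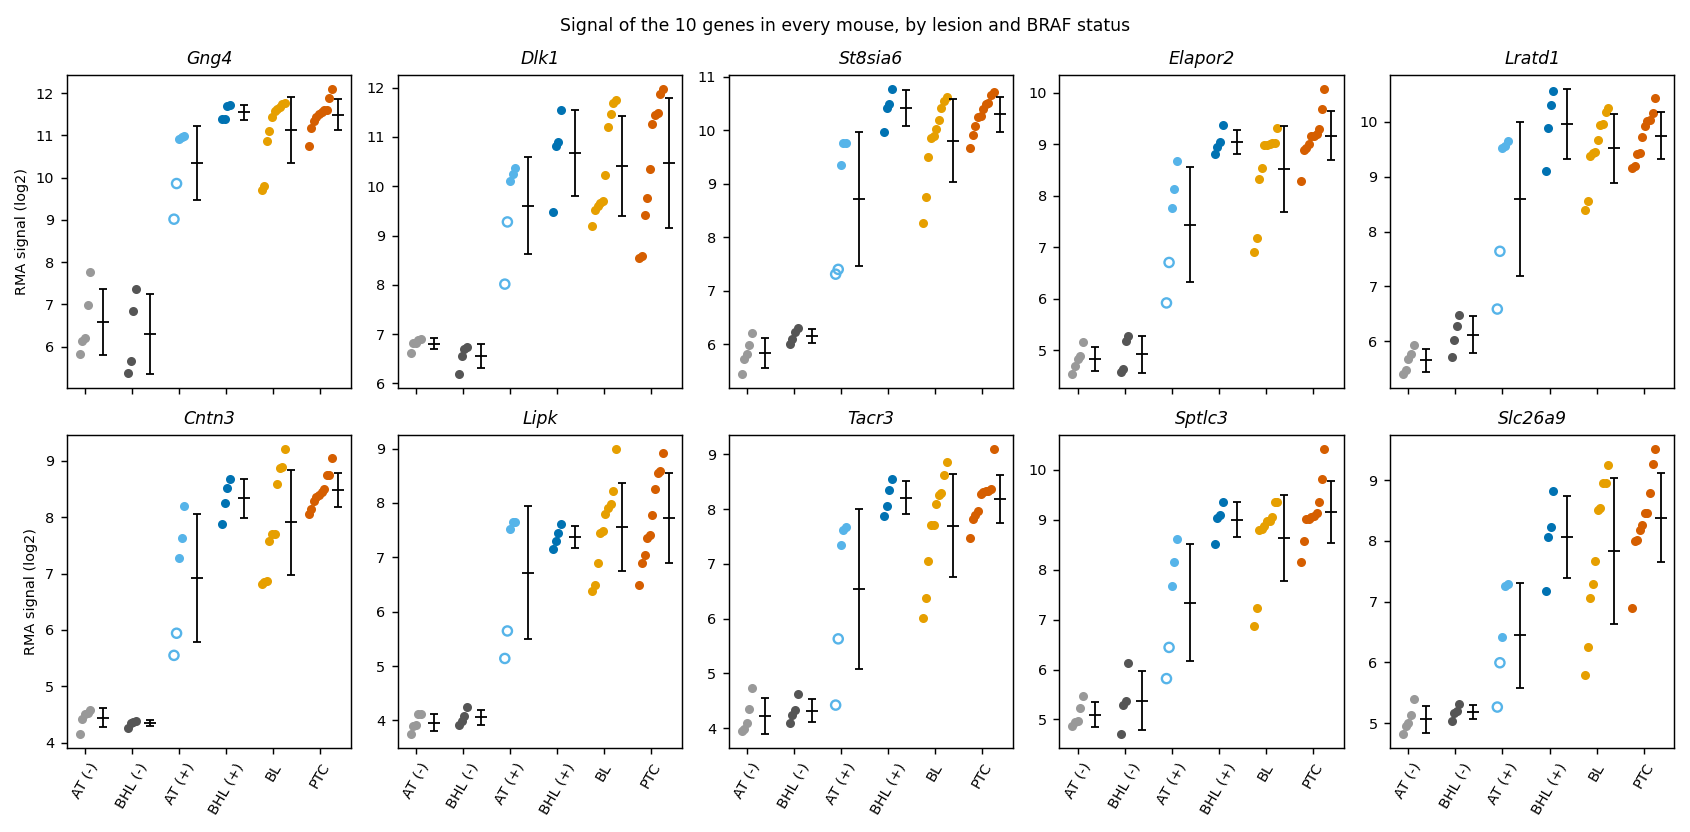
Signal (log2 RMA) of each gene in every mouse, 1 panel per gene, by lesion and *BRAF* status; black marks are the group mean and SD, and open circles are the *BRAF*(+) AT mice M_523 and M_779. The *BRAF*(-) groups sit low, the PTC, BL and *BRAF*(+) BHL mice sit high, and the 2 open circles lie below the other *BRAF*(+) AT mice in all 10 panels.

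*Gng4*, the G protein subunit, had 5.84, 6.14, 6.21, 6.99 and 7.77 in the AT mice without the transgene RNA. The BHL mice without it had 5.38, 5.67, 6.84 and 7.36. The AT mice with the transgene RNA had 9.02, 9.86, 10.90, 10.96 and 10.98, and the BHL mice with it had 11.39, 11.39, 11.69 and 11.71. The lowest *BRAF*(+) mouse was thus above the highest *BRAF*(-) mouse, and the 9 *BRAF*(+) mice had a mean of 10.88 ± 0.89 against 6.47 ± 0.81 (SD, n = 9 each), 21.3-fold higher. PTC ran from 10.74 through a median of 11.53 to 12.10, and BL from 9.71 through 11.51 to 11.75. *Tacr3*, the neurokinin B receptor, had a mean of 7.28 ± 1.36 in *BRAF*(+) and of 4.27 ± 0.27 in *BRAF*(-) non-malignant thyroids (SD, n = 9 each). Its lowest *BRAF*(+) value, 4.42 in AT mouse M_779, was inside the *BRAF*(-) range of 3.95 to 4.74.

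Among the surface proteins, *Dlk1* had 6.20 to 6.90 in the 9 *BRAF*(-) mice, 8.01, 9.28, 10.10, 10.25 and 10.37 in *BRAF*(+) AT and 9.47, 10.82, 10.91 and 11.54 in *BRAF*(+) BHL. It was 10.5-fold higher in *BRAF*(+) non-malignant thyroids, and the groups did not overlap. In PTC it was spread widely, from 8.54 through a median of 10.80 to 11.98. *Cntn3* was 8.90-fold higher, with *BRAF*(-) values of 4.16 to 4.58 and the lowest *BRAF*(+) value at 5.55. *Slc26a9*, the chloride transporter, had the smallest difference, 4.15-fold, and its *BRAF*(+) AT values of 5.27, 6.00, 6.43, 7.26 and 7.29 reached down into the *BRAF*(-) range, which ended at 5.40.

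Among the enzymes, *St8sia6* lay at 5.46 to 6.30 in *BRAF*(-) mice and at 7.31 or more in *BRAF*(+) ones, 11.2-fold higher on average. *Lipk* was 8.04-fold higher, from 4.00 ± 0.15 to 7.01 ± 0.94 (SD, n = 9 each), without overlap. *Sptlc3* was 7.26-fold higher, but its lowest *BRAF*(+) value of 5.82 was under the highest *BRAF*(-) value of 6.14. *Elapor2* (9.72-fold) and *Lratd1* (10.1-fold) did not overlap, although the lowest *BRAF*(+) *Lratd1* value, 6.59, was close to the highest *BRAF*(-) value, 6.48. In all, 7 of the 10 genes were higher in every *BRAF*(+) than in every *BRAF*(-) non-malignant thyroid, beside 1.28% of all probe sets, a count that follows from the choice of the genes.

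The 20 PTC and BL mice were not in the contrast that chose the genes. They were not independent of the choice, since the genes passed a filter on variation over all mice, these included. The genes were also chosen with earlier results of these data known. In each of the 10 genes all 20 were above all 9 *BRAF*(-) mice, while 3.46% of all probe sets had this pattern, although the same *BRAF*(-) mice served in the choice and no test was made. The distance from the highest *BRAF*(-) to the lowest PTC or BL value was widest in *Cntn3* (2.23 on the log2 scale) and *Lipk* (2.14), and narrowest in *Slc26a9* (0.40) and *Sptlc3* (0.72). As a mean over the 10 genes, relative to the *BRAF*(-) mean, the PTC mice were 4.02 ± 0.36 higher (SD, n = 10), the BL mice 3.61 ± 0.77 (SD, n = 10), the *BRAF*(+) BHL mice 3.98 ± 0.32 (SD, n = 4) and the *BRAF*(+) AT mice 2.58 ± 1.11 (SD, n = 5), while single *BRAF*(-) mice ran from -0.16 to 0.17.

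The spread in *BRAF*(+) AT came from mice M_523 and M_779, which were the lowest of their group in all 10 genes. The share of all probe sets in which this pair was lowest was not computed, so the pattern is not read as particular to these genes. Means of the pair over the 10 genes were 1.60 and 1.18 above the *BRAF*(-) mean, against 3.13, 3.42 and 3.57 in mice M_945, M_948 and M_1003. In *St8sia6* the low pair had 7.40 and 7.31 and the others 9.35, 9.77 and 9.76, and in *Lipk* the low pair had 5.65 and 5.14 and the others 7.52, 7.64 and 7.64. Mouse M_523 was above all *BRAF*(-) mice in 10 of 10 genes and mouse M_779 in 7 of 10. *Dlk1* and *Cntn3* were lower in mouse M_523, and the other 8 genes were lower in mouse M_779. The low pair held 9.24 and 9.49 in the *Braf* probe set, and the others 9.33, 9.57 and 9.28, so that the pair did not stand apart there. Mouse M_523 was the only male of the group, and mouse M_779 was its youngest mouse, 7 months old, and by the study's description of the lines the only one from line tg2. Of 14 marker lists 10 set the low pair apart from the others, and how many would set another pair apart was not computed. The pair was higher in 7, among them follicular cell markers, with a mean of 9.93 in both against 9.33 to 9.73, C cell and neuroendocrine markers, 7.51 and 7.48 against 6.10 to 6.80, and neuron and glia markers, 5.84 and 5.68 against 5.38 to 5.59. It was lower in 3, macrophage markers, 7.60 and 7.53 against 8.50 to 8.90, fibroblast markers, 8.53 and 8.69 against 8.93 to 9.45, and epithelial markers. The part of these in the low values was not tested.

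A milder low pair was found among the borderline lesions. BL mice M_416 and M_649 had means of 2.31 over the 10 genes, whereas the other 8 BL mice had 3.40 to 4.43. Mouse M_416 had the lowest BL value of *Gng4*, *Lratd1*, *Lipk*, *Tacr3* and *Slc26a9*, and mouse M_649 that of *St8sia6*, *Elapor2*, *Cntn3* and *Sptlc3*. Their *Braf* signals were 9.19, the lowest of the *BRAF*(+) mice, and 9.50. Their follicular cell markers averaged 9.84 and 9.90 against 8.75 to 9.86 in the other BL mice. Mouse M_416 had the highest BL mean of T and B cell markers (6.88) and the lowest of epithelial markers (9.79). Mouse M_649 had the highest BL means of airway (8.13), C cell and neuroendocrine (7.58), stomach (5.81), neuron and glia (5.52) and endothelial markers (9.63). It had the lowest BL mean of macrophage markers (7.91). Its parathyroid mean was 8.71, while BL mouse M_527, with the highest BL mean of the 10 genes (4.43), had 9.84. The part of these in the low values was not tested. No PTC mouse was below 3.54.

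Lesions were then compared within *BRAF*(+) mice, a question the choice of the genes did not use, although the AT and BHL mice are among those that chose them. The genes were higher in PTC than in *BRAF*(+) AT. In the limma model of all 38 mice 9 of the 10 passed (adjusted p = 0.0018 to 0.045), all but *Dlk1*, where 28.4% of all probe sets passed. The differences ran from 0.87 in *Dlk1* to 1.94 ± 0.41 (SE) in *Slc26a9*, with a median of 1.57 beside 0.35 over all probe sets tested. Mice M_523 and M_779 held the lowest *BRAF*(+) AT values of the 10 genes, so leaving them out lowers the differences against AT by construction. Without them the median of the 10 genes was 0.66, and 9.09% of all probe sets passed. Of the 10 genes 1 passed, which is near that share, *Slc26a9*, 1.52 higher in PTC (limma, adjusted p = 0.046). Its PTC values ran from 6.89 through a median of 8.36 to 9.51, against 6.43, 7.26 and 7.29 in the other *BRAF*(+) AT mice, so that the ranges still overlapped. *Lipk* went from 1.01 higher in PTC to -0.01 without the pair.

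*BRAF*(+) BHL, with 4 mice, had higher signals than *BRAF*(+) AT too. In this comparison 7 of the 10 genes passed (limma, adjusted p = 0.026 to 0.047), and *Gng4*, *Dlk1* and *Lipk* did not, where 8.3% of all probe sets passed. *St8sia6* was higher by 1.72 ± 0.41 and *Tacr3* by 1.66 ± 0.49 (SE, 4 against 5 mice). All 4 BHL mice were above all 5 AT mice in *St8sia6*, *Tacr3*, *Elapor2* and *Gng4*. The share of all probe sets with this pattern was not computed, so nothing is read from it. The whole comparison depended on single mice. Without the pair M_523 and M_779 0.615% of all probe sets and 0 of the 10 genes passed, and 0 of the 10 passed without either of them alone (0.98% of all without M_523 and 0% without M_779) or without any one of the BHL mice M_942, M_943 and M_997 (0.365%, 0.296% and 0.387% of all). Without AT mouse M_945 1 of the 10 passed beside 0.82% of all. It also gave 0 of the 10 in each of the fits without covariates, with muscle and adipocyte signals, in females and in older mice, where 0% to 2.89% of all passed. BL were higher than *BRAF*(+) AT in *St8sia6* (1.09), *Sptlc3* (1.29) and *Slc26a9* (1.38), with limma adjusted p of 0.043 to 0.049, where 4.83% of all probe sets passed, and without the pair 0 of the 10 and 0.0228% of all passed. With single mice left out the counts of the 10 genes moved with those of the whole table, from 0 beside 0.0228% of all without M_779 to 7 beside 10.4% and 11.3% without BL mice M_416 and M_649.

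**Figure D2:**
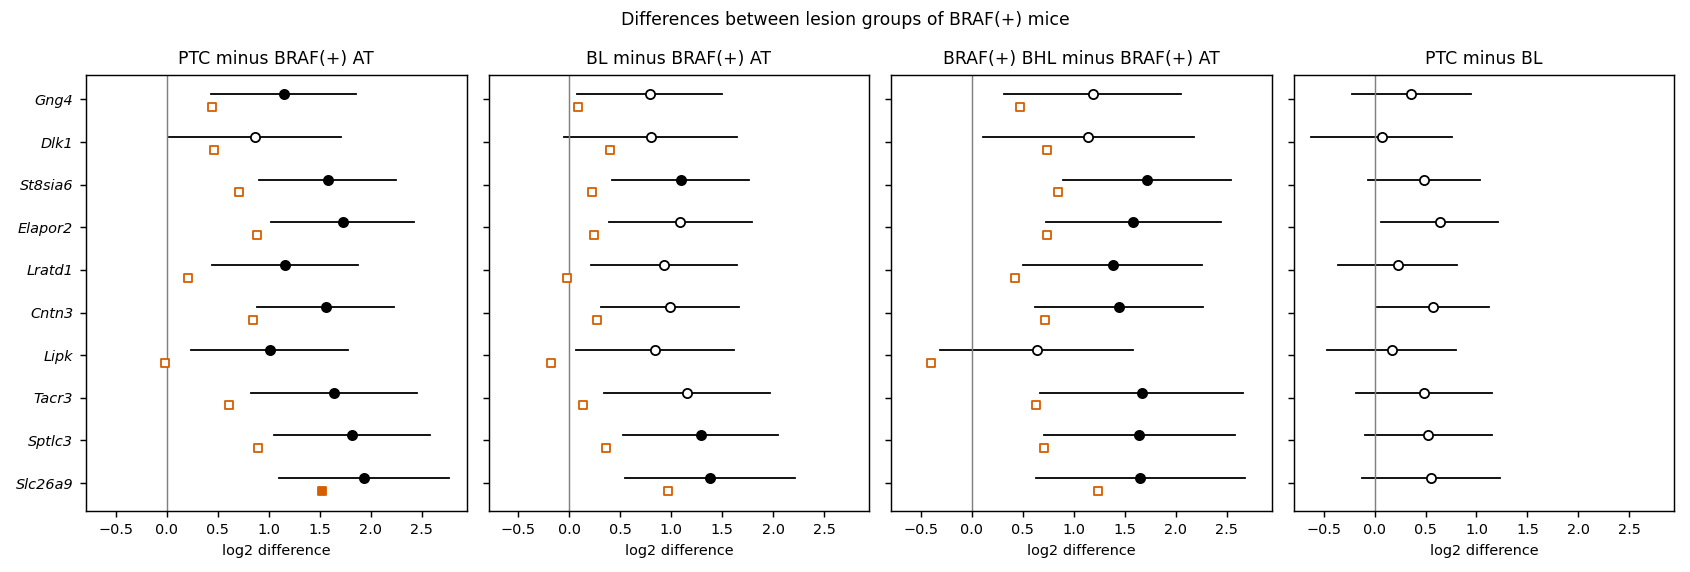
Log2 differences between lesion groups of *BRAF*(+) mice for the 10 genes. Circles are the estimates over all mice with their 95% confidence intervals, squares those without AT mice M_523 and M_779, and filled marks passed the limma test at an adjusted p of 0.05. The pair held the lowest AT values, so without it the squares lie lower by construction, and 1 of them stays filled.

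Between PTC and BL 0 of the 10 genes passed, as did 0% of all probe sets (0 of 4388 by limma, 150 at an unadjusted p under 0.05, and 0 in each alternative fit). All 10 estimates were higher in PTC, from 0.07 in *Dlk1* to 0.64 in *Elapor2*. The 95% interval of the *Elapor2* difference was 0.07 to 1.21 (limma, adjusted p = 0.90), and its permutation p, two-sided and not adjusted, was 0.047. For *Gng4* the interval was -0.22 to 0.94 and for *Dlk1* -0.62 to 0.76, and both include 0. PTC and *BRAF*(+) BHL also gave 0% (0 probe sets by limma, 202 at an unadjusted p under 0.05), with 5 of the 10 genes higher in PTC and estimates from -0.28 in *Dlk1* to 0.37 in *Lipk*. BL against *BRAF*(+) BHL gave 0% as well (0 by limma, 286 at an unadjusted p under 0.05), and 9 of the 10 genes were lower in BL, *St8sia6* by the most (-0.63, 95% interval -1.35 to 0.10).

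Hyperplasia without *BRAF*V600E was compared with AT among the *BRAF*(-) mice. These mice also served in the choice of the genes, as the side in which they are low. The *BRAF*(-) means of 8 of the 10 were below every array median, where a fall could hardly show. A lack of calls is therefore given as a description only. Between *BRAF*(-) BHL and *BRAF*(-) AT 0 of 10 passed and 0% of all probe sets (0 by limma, 139 at an unadjusted p under 0.05), and the estimates ran from -0.45 in *Dlk1* to 0.42 in *Lratd1*. With 4 against 5 mice the intervals were wide, -1.09 to 0.66 for *Gng4*. The *BRAF* effect in BHL minus that in AT was estimated in the 18 non-malignant thyroids. The same arrays chose the genes for a large *BRAF* effect, so nothing is read from these estimates. All 10 were positive, with a median of 1.5 on the log2 scale and 0.61 without mice M_523 and M_779, and 0 of 10 passed by limma, where 0.593% of all probe sets did.

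The signal of the *Braf* probe set was used as a measure per mouse. It was designed for mouse *Braf*, and how much of the human transgene's RNA it reports is not known here. It ran from 8.78 to 9.33 in the 9 *BRAF*(-) mice and from 9.19 to 10.33 in the 29 *BRAF*(+) mice, so that the groups overlapped. By group it was 9.38 ± 0.14 in *BRAF*(+) AT (SD, n = 5), 9.93 ± 0.22 in *BRAF*(+) BHL (SD, n = 4), 9.70 ± 0.33 in BL (SD, n = 10) and 9.87 ± 0.24 in PTC (SD, n = 10). In *BRAF*(-) mice *Braf* signals of up to 9.33 went with a mean of the 10 genes near 0, and *BRAF*(+) AT mouse M_1003 had 3.57 at a *Braf* signal of 9.28.

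**Figure D3:**
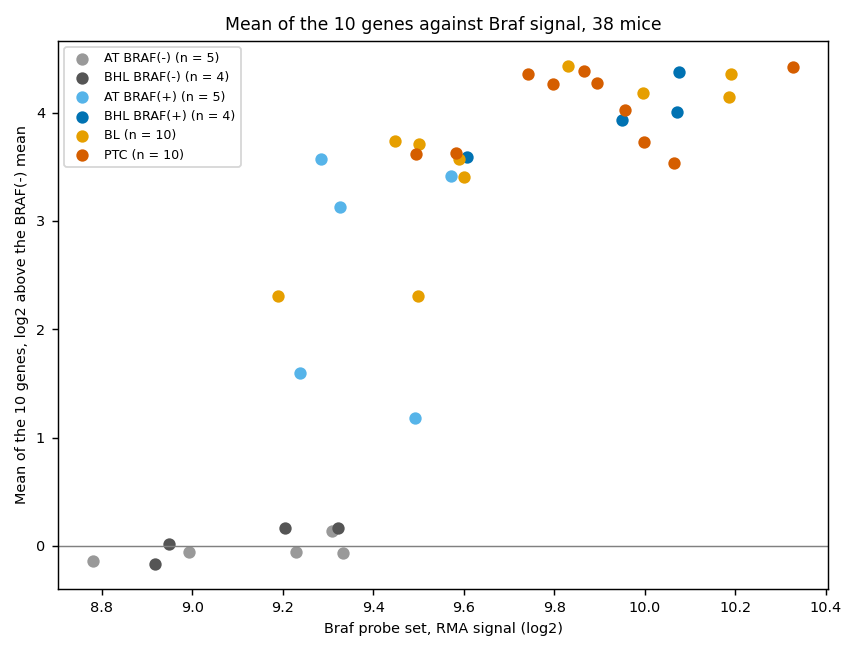
Mean of the 10 genes in each of the 38 mice (log2 above the mean of the *BRAF*(-) mice, vertical axis) against the *Braf* probe set (log2 RMA signal, horizontal axis), coloured by group. The *BRAF*(-) mice lie between -0.16 and 0.17, and the *BRAF*(+) mice whose *Braf* signals are no higher than 9.33 lie between 1.60 and 3.57.

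Among *BRAF*(+) mice the slope on *Braf* was positive in all 10 genes. With lesion group and sex in the limma model, the slope was 1.59 ± 0.42 log2 units of *Gng4* per log2 unit of *Braf* (SE, adjusted p = 0.015) and 1.63 ± 0.51 of *Elapor2* (SE, adjusted p = 0.031), and the other 8 genes did not pass, where 14.9% of all probe sets passed. The slopes ran from 0.70 in *Lipk* to the 1.63 of *Elapor2*, with a median of 1.37 beside 0.19 over all probe sets. Calls depended on the model and on single mice. With muscle and adipocyte signals as covariates 0 of the 10 passed (1.91% of all probe sets), without the flat filter 1 (2.66%), and with array weights 9 (30.5%). Without AT mice M_523 and M_779, which held low gene signals at *Braf* signals like those of their group, 8 of 10 passed beside 19.3% of all probe sets, and 6 passed without mouse M_779 alone (17.3% of all) or without mouse M_1003 alone (17.9%). Without BL mouse M_416 0 passed (5.61% of all), and without BL mice M_414, M_528 or M_649 or PTC mouse M_884 *Gng4* was the 1 gene that did (5.36% to 11.5% of all).

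The relation was also computed within single lesion groups. Over the 10 BL mice Pearson's r with *Braf* ran from 0.14 in *Lipk* to 0.84 in *Lratd1*, with a median of 0.74, while the median over all probe sets was 0.11. *Lratd1* passed (permutation p = 0.0023, adjusted over all probe sets 0.046), with Spearman's rho of 0.92 (permutation p = 0.00058, adjusted 0.052). Its r was 0.83 without M_414 and M_528, the 2 mice farthest from the median of *Braf*. The low BL mice M_416 and M_649 stayed in, and r was not computed without them, so how much rests on them is not known. The other 9 genes did not pass, where 6.97% of all probe sets did. For *Dlk1* r was 0.82 and rho 0.65 (adjusted permutation p = 0.057 and 0.20). Over the 10 PTC mice r ran from -0.12 in *Sptlc3* to 0.56 in *Gng4*, and 0 of the 10 genes passed, as did 0% of all probe sets (713 at an unadjusted permutation p under 0.05). Without the 2 PTC mice farthest from the median, M_1002 and M_884, r of *Gng4* was -0.05, that of *Sptlc3* -0.80 and that of *Lipk* -0.87. The difference between BL and PTC in these relations was not tested. Over all 29 *BRAF*(+) mice, where differences between lesion groups enter, 9 of the 10 genes passed, all but *Lipk*, beside 44.3% of all probe sets, with r from 0.25 in *Lipk* to 0.70 in *St8sia6* (rho 0.15 and 0.82, permutation p = 0.19 and 3e-05 for r). Without mice M_1002 and M_416, the farthest from the median, r ran from 0.11 to 0.67. Over the 23 *BRAF*(+) females it ran from 0.31 to 0.75. These were 30 relations, 10 genes in 3 sets of mice.

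*Dlk1* was the one gene of the 10 that passed between the sexes over all mice. In *BRAF*(+) females it ran from 9.28 through a median of 10.82 to 11.98 (n = 23), and in the *BRAF*(+) males it had 8.01 in AT, 9.47 in BHL, 9.19 and 9.69 in BL and 8.54 and 8.59 in PTC. In AT, BHL and PTC each male was below every female of the same group, and in BL 1 of 2 was. With lesion group in the limma model the 9 males were lower than the 29 females by -1.27 ± 0.30 (SE, adjusted p = 0.0031), where 10.8% of all probe sets passed. Over the *BRAF*(+) mice alone the difference was -1.79 (limma, adjusted p = 0.00063). In *BRAF*(-) mice, where *Dlk1* was low, 3 males had 6.61, 6.74 and 6.82 and the 6 females 6.20 to 6.90. The sex difference in *BRAF*(+) minus that in *BRAF*(-) mice was -1.80 ± 0.59 (SE) and did not pass (limma, adjusted p = 0.10), where 1.82% of all probe sets passed. By the study's table of lines and ages, the PTC males and the BL male of 4 months were of line tg2. So were PTC female M_884 and AT female M_779, while most *BRAF*(+) mice were of line tg3. The table also gives a BL mouse of tg2 in its oldest age class, which could not be matched to a mouse here. For BL and PTC the table's age classes and the labelled ages do not agree. Sex and line were thus partly mixed, and the part of the line was not tested. Males were also younger on the whole, with 2 of the 6 *BRAF*(+) males at 4 months, and with age in the model the difference between the sexes was -1.21 (limma, adjusted p = 0.028). In mice of 9 months or older, with 3 males left, it was -1.25 and did not pass (limma, adjusted p = 0.28), nor did it without lesion group in the model (-1.68, limma, adjusted p = 0.079). *Slc26a9* (-0.61, adjusted p = 0.19) and *Cntn3* (-0.51, adjusted p = 0.17) had lower values in males that did not pass by limma. Without mice M_523 and M_779 *Lipk* passed as well, 0.69 higher in males (limma, adjusted p = 0.046).

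**Figure D4:**
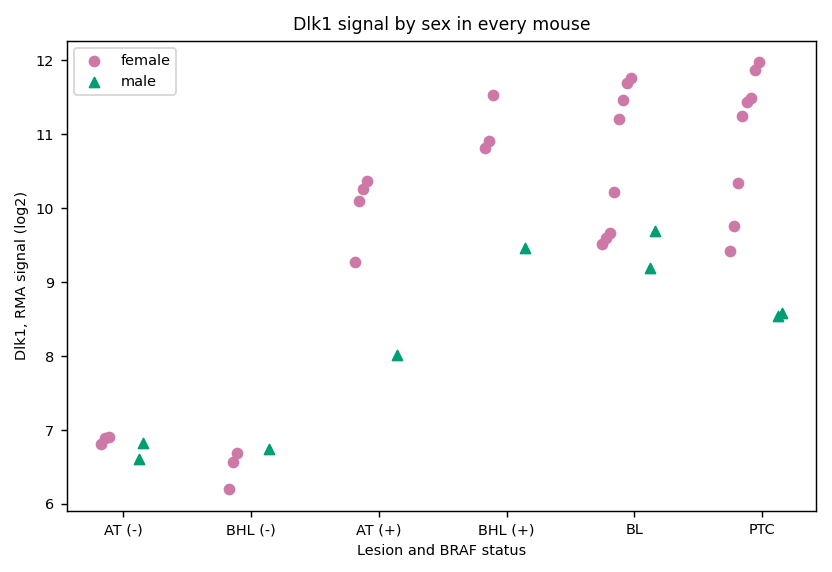
*Dlk1* signal (log2 RMA) in every mouse by lesion and *BRAF* status, with circles for females and triangles for males. The *BRAF*(+) males lie between 8.01 and 9.69 and most *BRAF*(+) females above them, while the sexes overlap in the *BRAF*(-) mice.

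The genes varied together from mouse to mouse. After the mean of each lesion group was taken out, the 45 pairs of genes had Pearson's r from 0.12 to 0.95 over the 29 *BRAF*(+) mice, with a median of 0.72 beside 0.03 over all pairs of probe sets that passed the flat filter. The mice share 9 of the arrays that chose the genes, so the values are a description. AT mice M_523 and M_779 and BL mice M_416 and M_649 were low within their groups in most of the genes. Neither these values nor the likeness to other genes given below was computed without them, so how much rests on these mice is not known. The closest pairs were *Gng4* with *Elapor2* (0.95), *Elapor2* with *Sptlc3* (0.94) and *Gng4* with *Tacr3* (0.93). *Dlk1* was the least tied, with a mean r of 0.43 to the others and the lowest values with *Lipk* (0.12) and *Sptlc3* (0.14), and *Lipk* followed with 0.58.

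**Figure D5:**
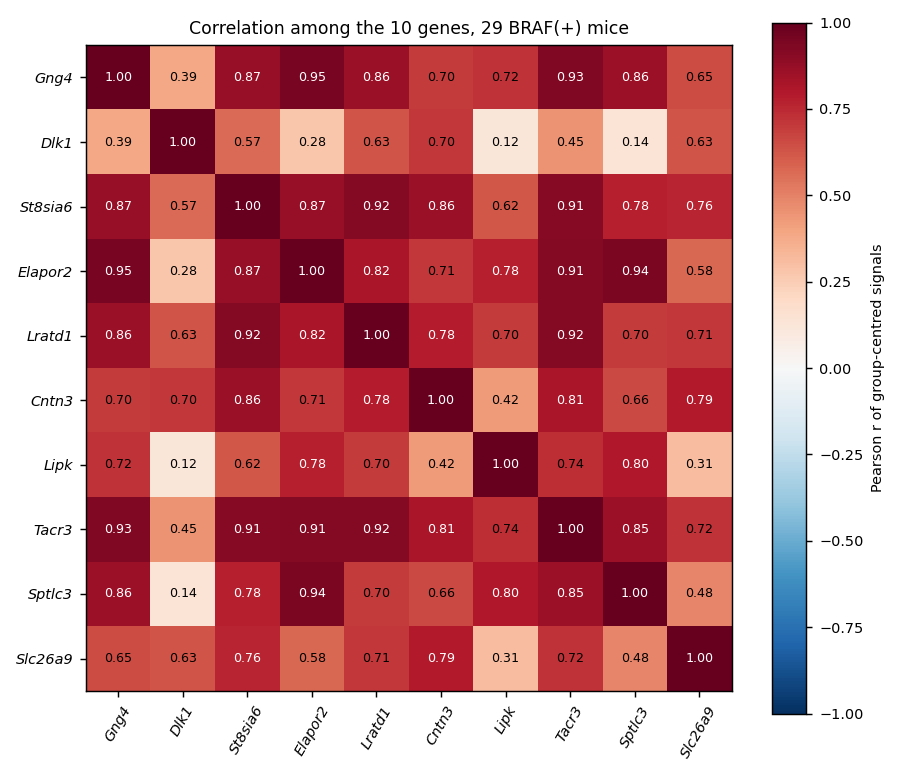
Pearson's r between the 10 genes over the 29 *BRAF*(+) mice, after each lesion group's mean was subtracted, with the value in each cell and colour from -1 to 1. Most cells are above 0.60, and the row of *Dlk1* holds the lowest, down to 0.12.

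By the same measure, the genes outside the set whose pattern was most like the mean of the 10 were *Sftpb*, the surfactant protein B gene (r = 0.95), *Dpep2*, a dipeptidase (0.94), *Lyst*, a regulator of lysosome size (0.93), *Vash2*, an angiogenesis regulator (0.93), and *Ahr*, the aryl hydrocarbon receptor (0.92). Single genes had *Sftpb* as the closest for *Gng4* (0.94) and *Tacr3* (0.95), *Vash2* for *St8sia6* (0.95), *Heph*, a copper-dependent ferroxidase, for *Elapor2* (0.93) and *Sptlc3* (0.92), *Dpep2* for *Lratd1* (0.93), *Atp13a4* for *Cntn3* (0.93), *Mical1* for *Slc26a9* (0.91), *Adgrg7* for *Dlk1* (0.87) and *Rbm11* for *Lipk* (0.81).

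Relatives of the 10 genes were read in the same contrast of *BRAF* status in the 18 non-malignant thyroids, in which 20.1% of all probe sets passed by limma. Apart from *Meg3*, no relative that passed had a difference as large as the smallest of the 10 genes, 2.01 in *Slc26a9*. The 10 genes were chosen for large differences in this contrast, so nothing about their families is read from that. Of 11 other G protein gamma subunits and 5 beta subunits, 0 varied enough to be tested, and the median differences were -0.03 and -0.01. Of 5 tachykinins and receptors 1 was tested and rose, *Tac1*, the precursor of substance P (1.19 ± 0.25, adjusted p = 0.0038). Of 18 Notch pathway genes 4 were tested and 2 rose, the ligand *Jag1* (0.85 ± 0.15, adjusted p = 0.0043) and the target *Hey2* (0.74 ± 0.22, adjusted p = 0.034). Of 5 measured neighbours of *Dlk1* in its imprinted locus 2 were tested and both rose, the noncoding RNAs *Meg3* (2.11 ± 0.31, adjusted p = 8.4e-05) and *Rian* (1.18 ± 0.23, adjusted p = 0.0023). All errors here are SE. Without the flat filter *Hey2* did not pass (limma adjusted p = 0.067) and the beta subunit gene *Gnb5* fell (-0.44, limma adjusted p = 0.0077).

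Of 19 other sialyltransferases 5 were tested and 4 rose, which were *St3gal1* (0.90 ± 0.11), *St3gal4* (0.69 ± 0.18), *St8sia2* (0.66 ± 0.16) and *St8sia3* (0.65 ± 0.18, SE), with limma adjusted p of 0.00099 to 0.038. This tally comes with the flat filter. Without it, and with adjustment over the whole table, *St6gal1* (-0.89, limma adjusted p = 0.0075) and *St3gal6* (-0.37, limma adjusted p = 0.023) fell, *St6galnac4* rose (0.52, limma adjusted p = 0.037) and *St8sia3* did not pass (limma adjusted p = 0.056). Of 23 measured sphingolipid genes 3 were tested, of which *Sgms1*, a sphingomyelin synthase, rose (0.54, adjusted p = 0.032) and *Cers6*, a ceramide synthase, fell (-0.88, adjusted p = 0.024) by limma. Without the flat filter *Cers6* did not pass (limma adjusted p = 0.058) and *Ormdl3*, an inhibitor of serine palmitoyltransferase, fell (-0.34, limma adjusted p = 0.018). Among 11 SLC26 transporters and *Cftr*, 3 were tested and *Slc26a7* fell (-0.79, limma adjusted p = 0.0071). *Lrat*, the retinol esterifying enzyme whose domain *Lratd1* shares, fell (-1.46, limma adjusted p = 0.0055), and *Elapor1* had -0.50 and did not pass (limma adjusted p = 0.28). Without the flat filter *Plaat3*, of the same list, fell as well (-0.65, limma adjusted p = 0.0091). Of 12 contactins and contactin-associated proteins 0 were tested, with a median difference of 0.09 (*Cntn2* rose by 0.38 without the flat filter, limma adjusted p = 0.011), and the 1 acid lipase tested, *Lipf*, had 0.21 and did not pass (limma adjusted p = 0.68).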

How the data were processed

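Thyroid RNA of 38 mice had been hybridised to GeneChip Mouse Gene 1.0 ST arrays. The authors deposited log2 signals of 35556 probe sets after RMA, whose version the sources used here do not give. RMA adjusts background and quantiles across arrays and can compress large differences. Arrays have no read depth, so the number of mice limits precision. Groups came from the sample labels. The 10 genes and the gene lists were chosen with earlier results of these data known. Each gene was named through the platform annotation, updated by Entrez number, and all 10 passed the study's flat filter (20% of mice or more had to lie 1.5-fold or farther from the gene's median), which kept 4388 probe sets.

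Fits were made with limma 3.58.1 in R 4.3.3 (lmFit, eBayes), with Benjamini-Hochberg adjustment over all 4388 and a threshold of 0.05: 6 groups and sex over 38 mice, *BRAF* status by lesion and sex over 18, and *Braf* signal with group and sex over 29. Correlations were tested by 100000 two-sided permutations. The interaction of sex and *BRAF* status was added after seeing the data. Named relatives were those past the threshold in each list, at most 4, or else the 1 with the largest difference. The fits were checked on simulated data. The human cohorts were not analysed here.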

Additional observations from a re-analysis of the deposited data

How the results depend on the processing

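No paired analysis was possible because mouse numbers are not shared between groups. The group comparisons, the sex difference, the interaction of *BRAF* status and lesion and the slope on *Braf* were refitted without the flat filter, with arrays centred on their medians, with an intensity trend and robust variance, unmoderated, with array weights, with age, without covariates, with muscle and adipocyte signals, in females, in mice of 9 months or older, without AT mice M_523 and M_779, and without each mouse in turn. The interaction of sex and *BRAF* status was refitted with age and without each male in turn, but not without single females. The correlations with *Braf* were refitted without the farthest mice and in subsets, and the correlations between genes and the permutation tests not at all. No gene had another probe set to try. The contrast by *BRAF* status that chose the genes was refitted too, without a test. Of the values of single genes 2962 counted as unchanged. In the tested comparisons these kept their side of the threshold. In the contrast by *BRAF* status they stayed within the median SD inside groups, so this count is not one of threshold calls alone. Another 191 no longer passed and 56 newly passed. Of those that had passed, 1 changed sign, *Lipk* in PTC against *BRAF*(+) AT, which was -0.013 without mice M_523 and M_779 (limma, adjusted p = 0.98). Another 44 values that had not passed changed sign, 5 of them without that pair.

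Counts of genes that passed, of 10, changed as follows, with the share of all probe sets that passed in brackets. PTC against *BRAF*(+) AT gave 4 in mice of 9 months or older (15.2%), 1 without M_523 and M_779 (9.09%), and 6 to 9 with single mice left out, 6 without M_523 (22.6%) or M_779 (17.3%). BL against *BRAF*(+) AT, 3 in the report, gave 1 without the flat filter (3.57%) and in the unmoderated model (5.95%), 0 with centred arrays, with age, without covariates, with muscle and adipocyte signals, in females, in older mice and without M_523 and M_779 (0.0228% to 3.33%), and 0 to 7 with single mice left out (0.0228% to 11.3%). *BRAF*(+) BHL against *BRAF*(+) AT, 7 in the report, gave 0 without the flat filter (0.045%), without covariates, with muscle and adipocyte signals, in females, in older mice and without M_523 and M_779 (0% to 2.89%), and 0 to 8 with single mice left out (0% to 11.4%). The sex difference gave 0 without covariates (7.43%) and in older mice (0.934%) and 2 without M_523 and M_779 (10.3%). The interaction of *BRAF* status and lesion gave 1 with array weights (4.26%). The slope on *Braf* gave 1 without the flat filter (2.66%), 9 with array weights (30.5%), 6 without sex (25.9%), 0 with muscle and adipocyte signals (1.91%), 5 in older mice (10.9%), 8 without M_523 and M_779 (19.3%), 8 without the 5 *BRAF*(+) AT mice (20.8%, chosen after seeing the data) and 0 to 6 with single mice left out (5.36% to 18.6%). The causes were not tested.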
